A study of Mus musculus with 9 samples.

Results

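Wild-type YAP1 was compared with an empty vector by RNA sequencing in Caki, a cell line long established from human renal carcinoma of the clear cell type. The comparison takes 3 libraries of each group, which are 6 of the 9 libraries of the study, and covers the 15492 of 58735 listed genes that passed a filter on low counts. The control group, called MX, carried the retrovirus-based vector MXIV without an insert, and the YAP1 group carried the same kind of vector with wild-type YAP1. The remaining 3 libraries carried YAP1-S127A, in which alanine replaces the serine at position 127. They shared the estimate of the spread and are used here only for reference. All groups were selected with G418, and the labels do not mention picked clones. Nothing says that replicate libraries are from separate cultures. The spread behind each p-value is that between libraries alone, and it may be technical. Although mouse is the organism given in the labels, the count table lists human gene identifiers, and the genes are named as human. Gene positions are those of the count table, and the sources used here do not give its human genome build.

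YAP1 is a transcriptional coactivator that binds DNA through the TEAD factors. The Hippo kinases LATS1 and LATS2 phosphorylate it and so keep it out of the nucleus, and several of their adaptors and inhibitors are in turn transcribed under YAP1. In epithelia it is known for genes of adhesion, matrix and growth factor signalling, and in the kidney the pathway takes part in nephron formation and tubule repair.

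Total counts ran from 16228869 to 24811150 in the 6 libraries. Levels are given as CPM, the counts of a gene relative to the scaled total of its library, after scaling by trimmed mean of M values (TMM). They compare libraries for the same gene and not genes with each other. The kidney factor PAX8 read 279 to 339 CPM, before TMM scaling, in the 6 libraries, whereas PAX2 had no count in any of them, which allows up to 0.121 to 0.185 CPM. Correlation of log2 CPM over genes was 0.983 to 0.990 within a group and 0.973 to 0.979 between MX and YAP1. The mitochondrial genome took 5.89%, 6.60% and 1.896% of the counts in MX and 3.50%, 8.60% and 11.4% with YAP1, so that the groups overlapped (means 4.80% ± 2.54 and 7.84% ± 4.02, SD, n = 3; exact permutation test, two-sided, p = 0.4, where the smallest possible is 0.1).

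The introduced gene was checked first. YAP1, on chromosome 11 from 102110461 to 102233423, read 108, 100 and 91.1 CPM in MX and 1519, 1003 and 1137 CPM with the YAP1 vector. Every YAP1 library was far above every MX library, and the mean was 12.2-fold higher (log2 fold change 3.61, SE 0.162, adjusted p = 6.93e-11). The deposited counts do not separate introduced from endogenous YAP1 transcripts. Among its partners, the coactivator WWTR1 and the factors TEAD1, TEAD2, TEAD3 and TEAD4 did not pass the test, with log2 fold changes from -0.21 to 0.30. VGLL3, another cofactor that binds TEAD factors, rose at a low level. It read 0.642, 0.484 and 0.601 CPM in MX and 2.33, 3.17 and 2.40 CPM with YAP1 (log2 fold change 2.15, SE 0.309, adjusted p = 0.000153).

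With YAP1, 1055 genes changed at an adjusted p under 0.05, 500 higher and 555 lower (edgeR quasi-likelihood test, Benjamini-Hochberg adjustment over all genes tested). That is 6.81% of the genes tested, 3.23% higher and 3.58% lower. These shares are the background for each count of a gene group in the text. Lists and their members were chosen with earlier results of these data known. A share above the background may therefore reflect that choice and is not independent support. The change was at least 2-fold for 398 of the 1055 called genes, 159 higher and 239 lower, and at least 4-fold for 107. The median size of a called change was 0.82 on the log2 scale. The 3 libraries of a group lay wholly above or below those of the other for 1044 of the 1055, and for 24.1% of all genes tested. Lack of overlap therefore adds little to a call, and the naming rule required it of the largest changes. With scaling to total counts in place of TMM, 990 genes were called, 311 higher and 679 lower, and the median of all genes moved from -0.004 to -0.076. The count rested on 2 libraries more than on the others. It was 601 without YAP1 replicate 3 and 639 without YAP1 replicate 2, of which 579 and 619 were among the 1055.

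**Figure D1:**
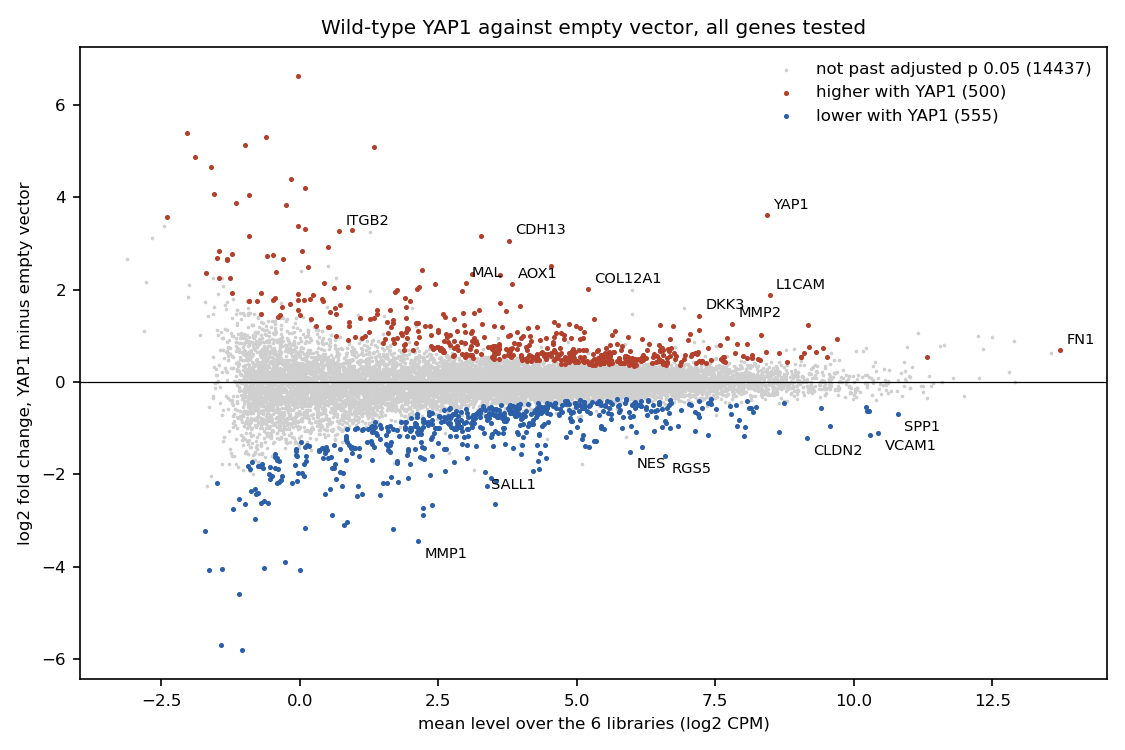
Each point is 1 of the 15492 tested genes, with the mean log2 CPM of the 6 libraries on the horizontal axis and the log2 fold change of YAP1 over the empty vector on the vertical axis. The 500 genes called higher are red and the 555 called lower are blue. YAP1 itself lies at 3.61, above every other gene of its level.

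Some genes of the Hippo pathway itself rose with YAP1, among them inhibitors as well as activators of its kinases. Of 31 kinases, adaptors and scaffolds tested, 6 rose and none fell, with a median log2 fold change of 0.14 against -0.004 for all genes. Left-out libraries gave 4 to 8 higher members, and total-count scaling gave 4. The call of WWC1, 1 of the 6, was lost in 6 of 20 alternative settings, among them the 6 libraries alone (adjusted p = 0.0559). AJUBA, a LIM protein that holds LATS kinases in check at junctions, read 51.5, 52.8 and 52.6 CPM in MX and 106, 95.8 and 96.8 CPM with YAP1. Its groups were far apart and narrow (log2 fold change 0.93, SE 0.106, adjusted p = 1.27e-05). FRMD6, an upstream activator of the kinases, read 28.2, 23.5 and 21.1 CPM against 46.2, 46.2 and 46.8 CPM (log2 fold change 0.93, adjusted p = 7.85e-05). The kinase gene LATS2 rose as well (0.56, adjusted p = 0.00652), a call that was lost with total-count scaling (adjusted p = 0.0623), whereas LATS1 did not pass (0.31, adjusted p = 0.25). WTIP, a relative of AJUBA, rose by 0.66 on the log2 scale, and its adjusted p went from 0.0112 to 0.0626 without YAP1 replicate 3. AMOT, an angiomotin that binds YAP1, stood at -0.42 and did not pass, while its relative AMOTL2 rose (0.73, adjusted p = 0.000203).

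Genes of a signature of YAP/TAZ targets were called in 1 direction. Of the 21 tested members 8 rose and none fell, and the median was 0.39. ANKRD1, a nuclear ankyrin-repeat protein of stretched muscle, read 1.82, 2.48 and 2.14 CPM in MX and 9.02, 9.86 and 7.54 CPM with YAP1, with no overlap (log2 fold change 2.05, SE 0.198, adjusted p = 1.91e-06). The receptor tyrosine kinase AXL read 177, 191 and 170 CPM against 322, 326 and 298 CPM (0.81, adjusted p = 0.000167). NT5E, the cell-surface enzyme CD73 that makes adenosine, read 65.7, 76.5 and 72.9 CPM against 121, 121 and 99.7 CPM (0.67, adjusted p = 0.00172). CYR61, a matricellular protein, read 133, 182 and 139 CPM against 265, 333 and 288 CPM (0.96, adjusted p = 0.00199). These 4 genes were higher in every YAP1 library than in any MX library. CTGF, the closest relative of CYR61 in the list, had 143, 150 and 124 CPM in MX and 106, 153 and 137 CPM with YAP1. Its groups overlapped and no difference was found (log2 fold change -0.07, SE 0.145, adjusted p = 0.845), and the sign turned to 0.06 without YAP1 replicate 1. Left-out libraries gave 6 to 13 higher members, with 13 without MX replicate 1, and total-count scaling gave 6.

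**Figure D2:**
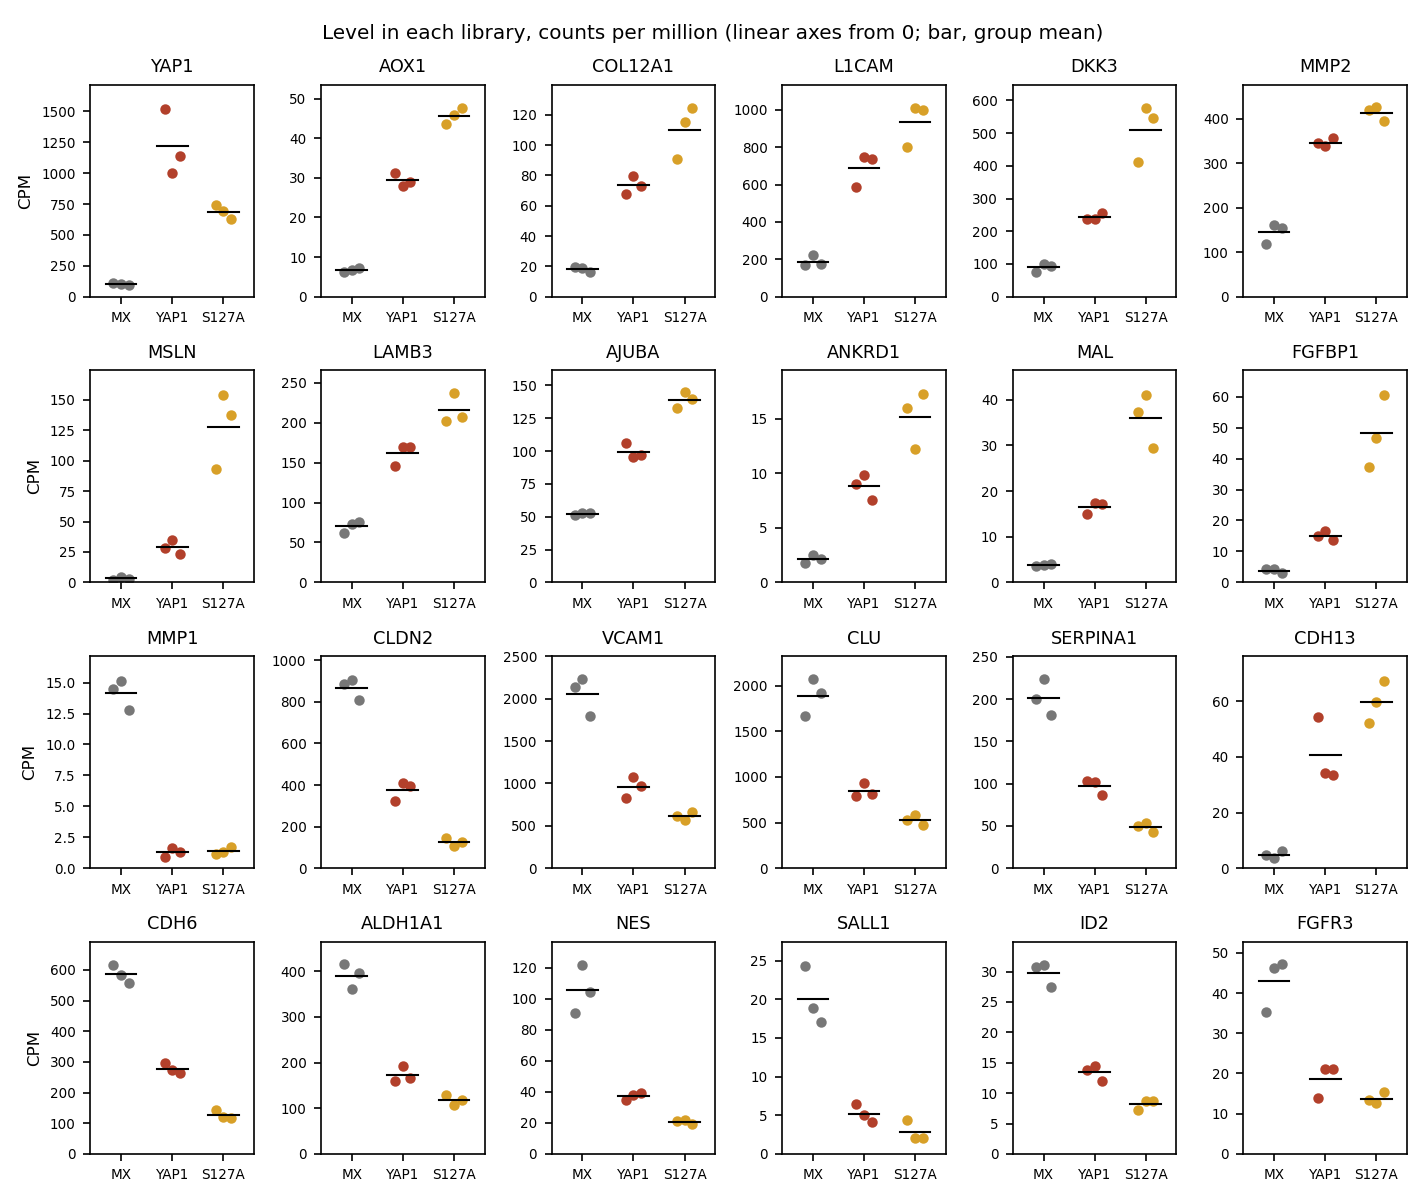
Each panel shows 1 gene, with CPM on a linear vertical axis from 0, 1 point per library and a bar at the mean of 3 libraries, for the empty vector (MX, gray), YAP1 (red) and YAP1-S127A (ochre). In all 24 panels the 3 YAP1 libraries lie wholly above or below the 3 MX libraries, as for AOX1 at 28.1 to 31.3 CPM against 6.35 to 7.14 CPM.

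Genes of adhesion and of the cytoskeleton were among the largest rises at high levels. L1CAM, a neural and tumour cell adhesion molecule on chromosome X from 153861514 to 153886174, read 167, 223 and 174 CPM in MX and 587, 747 and 737 CPM with YAP1. Every YAP1 library was more than 2-fold above every MX library (log2 fold change 1.88, SE 0.15, adjusted p = 2.82e-07). CDH13, a cadherin without a cytoplasmic domain, read 4.56, 3.57 and 6.24 CPM against 54.4, 34.2 and 33.4 CPM (3.06, SE 0.216, adjusted p = 3.32e-07). Among 18 cadherins and protocadherins tested 2 rose and 3 fell. The placental cadherin CDH3 rose with CDH13 (1.12, adjusted p = 0.00284), while CDH6, the kidney cadherin of the developing proximal tubule, fell. CDH6 read 616, 585 and 556 CPM in MX and 295, 273 and 264 CPM with YAP1, less than in any MX library (-1.08, SE 0.117, adjusted p = 6.88e-06).

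In the integrin list of 24 tested genes 3 rose (1 without MX replicate 3, YAP1 replicate 2 or YAP1 replicate 3) and 2 fell (none without MX replicate 3, YAP1 replicate 1 or YAP1 replicate 2), and ITGB2 was the only call that held in all fits without 1 library. Total-count scaling gave 1 higher and 2 lower. ITGB2, the beta chain of leukocyte integrins, read 0.285, 0.907 and 0.376 CPM in MX and 4.04, 5.50 and 4.30 CPM with YAP1 (log2 fold change 3.26, SE 0.348, adjusted p = 7.66e-06). The 14 leukocyte markers summed to 4.13 to 4.88 CPM in MX and 2.97 to 4.31 CPM with YAP1. Of these markers 4 were at 0, and 10 at or under 3 counts, in all 6 libraries. In actin and contractile genes 4 of 31 rose and none fell, among them the smooth muscle protein TAGLN (1.20, adjusted p = 0.000441). The count was 2 without MX replicate 2, without YAP1 replicate 2 and with total-count scaling. The caveolar coat gene CAVIN1 rose (0.75, adjusted p = 0.00152), and CAV1 stood at 0.36 and did not pass.

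Extracellular matrix genes changed in both directions. Of 32 matrix glycoproteins and proteoglycans 8 rose and 4 fell, while 2 of 26 collagen chains rose and 1 fell. The count of higher collagens was 4 without MX replicate 2 and 1 without any other single MX or YAP1 library except YAP1 replicate 1. It was 4 without YAP1-S127A replicate 1 or 2 and 1 with total-count scaling. The 12 fibroblast and pericyte markers, which include collagens of the list, summed to 1061 to 1516 CPM in MX and 1521 to 1765 CPM with YAP1, and their part in these results was not tested. COL12A1, a collagen on the surface of fibrils, read 19.4, 18.9 and 16.3 CPM in MX and 67.8, 79.7 and 73.0 CPM with YAP1. All 3 YAP1 libraries stood at more than 3 times the highest MX value (log2 fold change 2.01, SE 0.134, adjusted p = 1.79e-08). FBN2, a microfibril protein, read 40.5, 34.5 and 31.8 CPM against 63.5, 82.7 and 82.4 CPM (1.10, adjusted p = 5.99e-05). The basement membrane proteoglycan perlecan, HSPG2, read 224, 194 and 192 CPM against 291, 355 and 432 CPM (0.82, adjusted p = 0.000571). Neither pair of groups overlapped. In the other direction, SPP1, the secreted phosphoprotein osteopontin, read 2167, 2387 and 2304 CPM in MX and 1120, 1550 and 1558 CPM with YAP1 (-0.70, adjusted p = 0.00449). SPOCK1, a testican, and LTBP3, a carrier of latent TGF-beta, fell too (-0.96, adjusted p = 7.47e-05 and -0.83, adjusted p = 0.000939). LTBP2, a relative that does not bind latent TGF-beta, rose (0.66, adjusted p = 0.00115).

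Laminin chains, the trimer-forming proteins of basement membranes, were called in both directions, with 1 of 10 higher and 3 lower. LAMB3, a chain of laminin 332, read 61.6, 72.8 and 75.9 CPM in MX and 146, 169 and 170 CPM with YAP1 (log2 fold change 1.21, SE 0.122, adjusted p = 2.74e-06). LAMA4, a chain of vessel-type laminins, read 356, 320 and 322 CPM against 152, 185 and 176 CPM (-0.96, SE 0.121, adjusted p = 3.67e-05). Each YAP1 library was above all MX libraries for LAMB3 and below them all for LAMA4. LAMA3, a partner of LAMB3 in that trimer, stood at -0.37 and did not pass. In the collagen-processing enzymes the lysyl oxidase LOXL4 rose (0.70, adjusted p = 0.00303), and LOX itself stood at 0.40 and did not pass.

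Matrix proteases and their inhibitors gave 4 higher and 4 lower of 29 tested. MMP1, interstitial collagenase, read 14.5, 15.2 and 12.8 CPM in MX and 0.933, 1.64 and 1.33 CPM with YAP1. The log2 fold change was -3.44 (SE 0.224, adjusted p = 1.48e-08). MMP2, the gelatinase of basement membranes, read 119, 161 and 154 CPM against 345, 338 and 356 CPM (1.26, SE 0.125, adjusted p = 2.19e-06). The 2 proteases moved in opposite directions with no overlap in either. MMP28, epilysin, fell (-1.76, adjusted p = 0.000731). MMP7, matrilysin, read 1076, 1412 and 765 CPM against 486, 674 and 525 CPM (-0.95, adjusted p = 0.0039) and missed the threshold without MX replicate 1 (adjusted p = 0.054). The count of higher members was 2 without MX replicate 3 and without YAP1 replicate 2.

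Complement and coagulation genes, most of them secreted plasma-type proteins, fell more often than they rose, 8 against 1 of 24 tested, with a median of -0.29. Left-out libraries gave 7 to 9 lower, and 2 higher without YAP1 replicate 1. SERPINA1, alpha-1 antitrypsin, read 201, 223 and 182 CPM in MX and 103, 102 and 87.1 CPM with YAP1. All YAP1 values lay well under the MX values (log2 fold change -1.05, SE 0.123, adjusted p = 1.56e-05). CFI, the protease that cuts C3b, read 19.0, 20.6 and 15.0 CPM against 7.67, 8.22 and 5.15 CPM (-1.38, adjusted p = 7.84e-05). CLU, the secreted chaperone clusterin, fell from 1667, 2073 and 1918 CPM to 787, 938 and 812 CPM (-1.16, adjusted p = 1.68e-05). None of these groups overlapped. The Kunitz inhibitor TFPI2 fell as well (-0.64, adjusted p = 0.00658), and GAS6, the vitamin K-dependent ligand of AXL, was the member that rose, from 54.0, 98.5 and 75.2 CPM to 140, 157 and 133 CPM (0.92, adjusted p = 0.00407). C4A and C4B, near-identical copies whose reads may be split between them, stood at -1.71 and -2.44, and the call of C4B was lost without YAP1 replicate 3 (adjusted p = 0.0638).

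Serpins as a family, a group taken up after the values were seen, gave 7 lower and 1 higher of 17 tested. SERPING1, the C1 inhibitor, read 35.8, 39.5 and 33.0 CPM in MX and 11.8, 9.12 and 7.59 CPM with YAP1 (log2 fold change -1.93, SE 0.182, adjusted p = 1.67e-06). SERPINF2, the plasmin inhibitor alpha-2-antiplasmin, read 30.9, 45.0 and 39.4 CPM against 10.5, 14.1 and 12.3 CPM (-1.64, adjusted p = 1.88e-06). Both were far lower in every YAP1 library. The angiogenesis inhibitor SERPINF1 fell (-1.57, adjusted p = 0.000271), and so did the corticosteroid-binding globulin SERPINA6 (-2.88, adjusted p = 0.000697). SERPINF1 read 6.17, 7.92 and 5.49 CPM in MX and 2.54, 1.76 and 2.22 CPM with YAP1, without overlap. Left-out libraries gave 5 to 7 lower serpins.

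Epithelial surface and secretory genes rose from low levels. Of 13 tested genes of the mesothelin, mucin and apical secretory list 5 rose and none fell, in every fit without 1 library, and the mucins tested did not pass. PI3 and SLPI, neighbouring secreted elastase inhibitors on chromosome 20, both rose (adjusted p = 1.15e-05 and 0.000115). PI3 went from 0.143, 0.121 and 0.263 CPM to 3.94, 2.44 and 1.69 CPM, and no fold is given because MX was near the detection floor of 3 counts. MAL, a lipid-raft protein of apical sorting, read 3.53, 3.75 and 3.95 CPM against 14.9, 17.4 and 17.1 CPM (log2 fold change 2.14, SE 0.159, adjusted p = 9.64e-08). MSLN, the surface protein mesothelin, read 2.21, 4.65 and 3.04 CPM against 28.2, 34.6 and 23.6 CPM (3.17, SE 0.264, adjusted p = 9.01e-06). Each of these genes was higher in every YAP1 library than in any MX library.

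Junction and filament genes were called in both directions. Among 25 tight junction and desmosome genes 2 rose and 2 fell, with 1 higher without MX replicate 2, MX replicate 3, YAP1 replicate 2 or YAP1 replicate 3. CLDN2, the claudin of leaky proximal tubule junctions, read 888, 905 and 809 CPM in MX and 323, 408 and 396 CPM with YAP1 (log2 fold change -1.21, SE 0.133, adjusted p = 7.7e-06). EPCAM, an epithelial adhesion molecule, fell (-1.12, adjusted p = 0.000464), while the desmosomal plaque protein DSP rose from 17.9, 19.5 and 14.6 CPM to 48.1, 31.1 and 29.4 CPM (1.07, adjusted p = 0.000786). The groups of CLDN2 and DSP were separate, in opposite directions. NES, the intermediate filament protein nestin, read 90.5, 121 and 104 CPM against 34.8, 37.7 and 39.0 CPM (-1.50, SE 0.123, adjusted p = 3.32e-07). The keratin KRT80 rose (0.68, adjusted p = 0.000939), and vimentin, VIM, stood at -0.35 and did not pass. The list of epithelial-mesenchymal transition factors and epithelial factors had 15 tested genes. The reported edgeR fit and DESeq2 called 0 of them, and limma-voom 1 lower. Other edgeR settings differed in direction. No filter, the replicate block and the fit without MX replicate 1 called 1 higher. Some others, among them the 6 libraries alone, called 1 lower. In the reported fit 3 had an unadjusted p under 0.05, against 3063 of all 15492 genes.

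**Figure D3:**
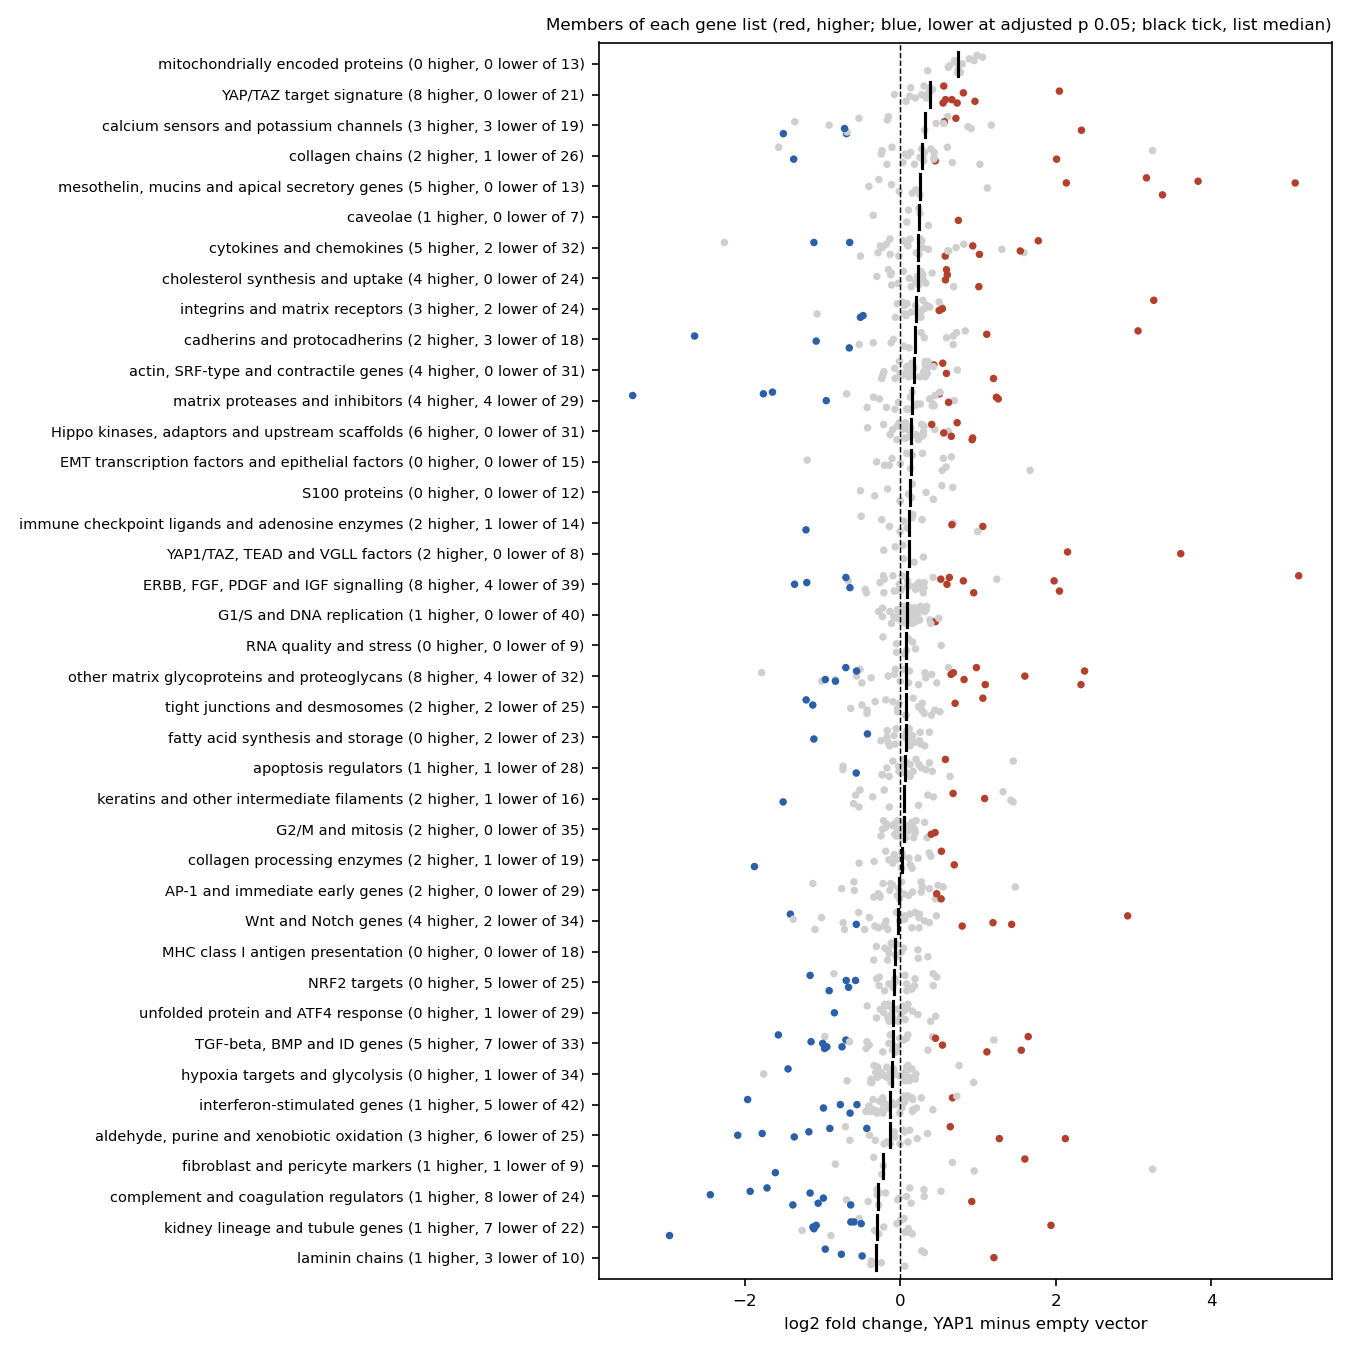
Each point is a tested member of a gene list, placed by its log2 fold change of YAP1 over the empty vector. Red and blue mark genes called higher and lower, gray the others, black ticks the list medians, and the dashed line the median of all tested genes at -0.004. The median of the YAP/TAZ targets, 0.39, lies to the right of that line. The mitochondrially encoded proteins have the highest median, 0.75, with no gene called. Complement, kidney and laminin genes have the lowest medians, from -0.31 to -0.29.

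Kidney lineage and tubule genes fell in 7 of 22 tested and rose in 1, with a median of -0.30, and left-out libraries gave 5 to 7 lower. VCAM1, an adhesion molecule of injured tubules and endothelium, read 2140, 2235 and 1800 CPM in MX and 825, 1074 and 965 CPM with YAP1 (log2 fold change -1.11, SE 0.14, adjusted p = 3.62e-05). The endothelial markers summed to 1.61 to 2.58 CPM in MX and 1.51 to 1.86 CPM with YAP1. In bulk RNA fewer cells of a type and less RNA per cell cannot be told apart. SLC17A1, a phosphate and urate transporter, fell (-1.12, adjusted p = 0.00242). The member that rose was MME, the brush border peptidase neprilysin, from 1.64, 1.27 and 1.92 CPM to 6.79, 6.63 and 5.50 CPM (1.94, SE 0.226, adjusted p = 1.54e-05). All 3 genes had groups that did not overlap.

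Outside that list, and chosen by size or by family after the values were seen, other transcription factors and transporters changed. SALL1, a zinc finger factor of nephron progenitors, read 24.3, 18.8 and 17.0 CPM in MX and 6.48, 4.99 and 4.13 CPM with YAP1 (log2 fold change -1.95, SE 0.232, adjusted p = 2.33e-05). FOXJ1, the master factor of motile cilia, read 15.0, 5.92 and 8.27 CPM against 0.829, 1.02 and 1.33 CPM (-3.19, SE 0.361, adjusted p = 2.33e-05). NR1H4, the bile acid receptor FXR, read 5.42, 4.05 and 5.71 CPM against 1.76, 1.87 and 1.69 CPM (-1.52, adjusted p = 0.000484). All 3 fell without overlap, although the MX libraries themselves were spread widely for FOXJ1. Of 222 solute carriers 9 rose and 11 fell, with 3 higher without YAP1 replicate 3 and 4 without YAP1 replicate 2. The share called was 9.01%, against the background of 6.81%. With total-count scaling 5 were higher and 14 lower. The glucose transporter SLC2A2 read 13.4, 14.02 and 8.04 CPM in MX and 2.07, 1.81 and 1.46 CPM with YAP1 (-2.73, SE 0.247, adjusted p = 1.01e-06). SLCO4C1, an organic anion carrier of the kidney, read 26.8, 19.3 and 22.5 CPM against 3.27, 5.72 and 5.46 CPM (-2.25, SE 0.218, adjusted p = 2.18e-06). Both carriers were below all MX values in every YAP1 library, as was the light amino acid transporter subunit SLC7A7 (-1.02, adjusted p = 1.57e-05). SLCO4A1 was among the 9 carriers that rose. Its log2 fold change was 0.84 to 1.18 over 20 alternative settings, and its call was kept in all of them.

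Growth factor genes rose more often than they fell, 8 against 4 of 39 tested in the ERBB, FGF, PDGF and IGF list, with 5 higher without MX replicate 3, and 6 higher against 5 lower with total-count scaling. FGFBP1, a carrier that frees FGF from the matrix, read 4.31, 4.23 and 2.89 CPM in MX and 14.9, 16.5 and 13.6 CPM with YAP1 (log2 fold change 1.98, SE 0.192, adjusted p = 1.91e-06). FGF1 read 1.03, 0.605 and 0.864 CPM against 4.25, 3.40 and 3.06 CPM (2.05, SE 0.27, adjusted p = 5.99e-05). The receptor FGFR3 moved the other way, from 35.4, 46.2 and 47.1 CPM to 13.8, 21.1 and 21.0 CPM (-1.20, SE 0.16, adjusted p = 7.08e-05). Carrier and ligand were higher, and this receptor lower, in every YAP1 library than in any MX library. FGFR2 had 2, 1 and 0 counts in MX and 30, 34 and 36 counts with YAP1. HGF, the ligand of MET, fell from 31.7, 24.4 and 37.5 CPM to 11.3, 11.1 and 14.2 CPM (-1.36, SE 0.2, adjusted p = 0.000267). HBEGF, an EGF receptor ligand, rose (0.63, adjusted p = 0.00258). MERTK, a receptor of GAS6 like AXL, fell (-0.70, adjusted p = 0.00322).

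In the TGF-beta, BMP and ID list 5 of 33 rose and 7 fell. The count of higher members was 3 without MX replicate 3, without YAP1 replicate 2, without YAP1 replicate 3 and with total-count scaling, and that of lower members 4 without MX replicate 2 and 3 without YAP1 replicate 3. The activin subunit INHBA read 9.84, 9.25 and 7.66 CPM in MX and 20.9, 31.8 and 31.0 CPM with YAP1 (log2 fold change 1.65, SE 0.18, adjusted p = 7.59e-06). FSTL3, a secreted antagonist of activin, rose too, from 71.7, 141 and 93.6 CPM to 196, 249 and 217 CPM (1.12, SE 0.203, adjusted p = 0.00313). NOG, the BMP antagonist noggin, rose at a low level (1.56, adjusted p = 0.000328). The activin receptor ACVR1B fell from 65.8, 61.9 and 59.4 CPM to 41.0, 36.0 and 38.4 CPM (-0.70, adjusted p = 0.000464). ID2, a BMP-induced inhibitor of helix-loop-helix factors, read 30.7, 31.1 and 27.4 CPM against 13.8, 14.5 and 12.1 CPM (-1.15, SE 0.133, adjusted p = 1.54e-05), and ID1 fell with it (-1.57, adjusted p = 0.000304). No overlap was seen for INHBA, FSTL3, ACVR1B, ID1 or ID2.

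Wnt and Notch genes gave 4 higher and 2 lower of 34. DKK3, a secreted glycoprotein of the dickkopf family, read 75.1, 101 and 94.2 CPM in MX and 236, 237 and 257 CPM with YAP1 (log2 fold change 1.44, SE 0.142, adjusted p = 2.19e-06). WNT7B, a ligand of the collecting duct, read 11.8, 11.3 and 15.5 CPM against 28.4, 32.3 and 28.04 CPM (1.20, SE 0.141, adjusted p = 1.68e-05). WNT5B rose from under 1 CPM (2.93, adjusted p = 8.82e-05). For DKK3 and WNT7B the lowest YAP1 library was above the highest MX library. The Wnt target AXIN2 stood at -0.72 and did not pass. The count of lower members was 0 without YAP1 replicate 1, 4 without MX replicate 3 and without YAP1-S127A replicate 1 or 2, and 1 without any other single MX or YAP1 library. With total-count scaling the list gave 4 higher and 5 lower. Among guidance molecules, taken as families after the values were seen, SEMA7A rose from 18.4, 25.5 and 18.8 CPM to 50.2, 46.7 and 46.7 CPM (1.20, adjusted p = 2.33e-05). SEMA3A fell from 10.7, 9.55 and 8.75 CPM to 4.15, 4.82 and 4.04 CPM (-1.16, adjusted p = 0.000244). Ephrin genes gave 4 higher and 2 lower of 13, with EPHB2 higher (0.64, adjusted p = 0.0024) and EFNA5 lower (-0.66, adjusted p = 0.00058). The count of higher ephrin genes was 2 without YAP1 replicate 2 and without YAP1 replicate 3, and total-count scaling gave 3 higher and 3 lower.

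Cytokine and chemokine genes gave 5 higher and 2 lower of 32. IL6 read 8.70, 8.89 and 5.94 CPM in MX and 18.03, 22.6 and 27.6 CPM with YAP1 (log2 fold change 1.55, SE 0.252, adjusted p = 0.00203). CXCL6, a neutrophil attractant, read 600, 718 and 508 CPM against 854, 1369 and 1268 CPM (0.94, SE 0.177, adjusted p = 0.00226). IL18, an inflammasome cytokine, fell from 342, 364 and 390 CPM to 222, 252 and 225 CPM (-0.65, adjusted p = 0.00513). The 3 genes had no overlap between groups. CXCL8, better known as interleukin 8, stood at 1.59 and did not pass (adjusted p = 0.11). Interferon-stimulated genes gave 1 higher and 5 lower of 42 (3 lower without MX replicate 2, MX replicate 3 or YAP1 replicate 3), and the guanylate-binding proteins differed in sign. GBP2 read 39.5, 37.5 and 38.0 CPM in MX and 22.7, 25.4 and 19.6 CPM with YAP1 (-0.77, adjusted p = 0.000541), whereas GBP1 read 8.41, 9.67 and 8.60 CPM against 13.4, 15.2 and 13.9 CPM (0.67, adjusted p = 0.00439). None of 18 antigen presentation genes of MHC class I passed, with log2 fold changes from -0.34 to 0.36. Of these 18 genes 2 had an unadjusted p under 0.05, against 3063 of all 15492 genes. DESeq2 and limma-voom called 0 of them too, and the replicate block called 1 lower. The adenosine receptor ADORA2B rose beside NT5E, from 5.56, 6.47 and 5.60 CPM to 12.9, 11.3 and 12.5 CPM (1.06, adjusted p = 0.000267).

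Oxidising enzymes changed in both directions. AOX1, an aldehyde oxidase, read 6.35, 6.71 and 7.14 CPM in MX and 31.3, 28.1 and 28.9 CPM with YAP1 (log2 fold change 2.13, SE 0.125, adjusted p = 4.89e-09). XDH, its relative xanthine dehydrogenase, rose as well (1.28, adjusted p = 0.00537). ALDH1A1, a retinal dehydrogenase, read 415, 360 and 396 CPM against 160, 193 and 167 CPM (-1.17, SE 0.12, adjusted p = 3.27e-06). The changes of AOX1 and ALDH1A1 were opposite and without overlap. That list gave 3 higher and 6 lower of 25, with 3 lower without YAP1 replicate 1 and 2 without YAP1 replicate 2. Of 25 NRF2 targets 5 fell and none rose. NQO1, a quinone reductase, went from 205, 219 and 245 CPM to 141, 153 and 156 CPM (-0.57, adjusted p = 0.00256). AKR1C1, AKR1C2 and AKR1C3 are close copies on chromosome 10, whose reads may be split, and stood at -0.69, -0.66 and -1.16. TXNRD1, thioredoxin reductase and another NRF2 target, stood at -0.30 and did not pass.

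For lipids, 4 of 24 cholesterol genes rose and none fell, and left-out libraries gave 3 to 5. MVD, an enzyme of the mevalonate pathway, rose (log2 fold change 0.60, adjusted p = 0.00675). DGAT2, which makes triglyceride, fell from 13.8, 15.3 and 14.7 CPM to 6.37, 6.91 and 6.97 CPM (-1.11, adjusted p = 0.00181). PSAT1, an enzyme of serine synthesis, was the 1 call among 29 genes of the unfolded protein and ATF4 response, and 3 genes were lower without YAP1 replicate 1. PSAT1 fell from 127, 120 and 140 CPM to 65.1, 74.6 and 75.5 CPM (-0.85, SE 0.111, adjusted p = 5.82e-05). The groups of DGAT2 and PSAT1 were separate. In the hypoxia and glycolysis list 1 of 34 was called, 2.94% against the background of 6.81%. That call, EGLN3, was lost without MX replicate 2, YAP1 replicate 2 or YAP1 replicate 3, and 2 were called without YAP1 replicate 1.

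Other genes among the largest changes had varied roles. RGS5, a regulator of G protein signalling and a pericyte marker, read 192, 168 and 149 CPM in MX and 53.6, 51.3 and 62.3 CPM with YAP1 (log2 fold change -1.60, SE 0.141, adjusted p = 7.62e-07). CLSTN2, a synaptic cadherin-like protein, read 32.2, 30.3 and 23.2 CPM against 4.20, 5.72 and 3.86 CPM (-2.64, SE 0.227, adjusted p = 1.01e-06). GDA, guanine deaminase, read 27.0, 17.1 and 24.3 CPM against 3.84, 6.06 and 6.21 CPM (-2.09, SE 0.251, adjusted p = 5.99e-05). All 3 were lower in every YAP1 library than in any MX library, as the rule that named them required. KCNIP3, a calcium sensor that binds potassium channels and DNA, rose from 2.71, 4.72 and 4.13 CPM to 18.7, 17.6 and 21.0 CPM (2.33, SE 0.194, adjusted p = 3.9e-07). BNC1, a zinc finger protein of squamous epithelium, read 16.2, 12.9 and 16.9 CPM against 37.1, 34.9 and 41.4 CPM (1.29, adjusted p = 4.46e-06). NPNT, the integrin ligand nephronectin of kidney development, read 6.63, 5.68 and 4.28 CPM against 21.3, 35.3 and 26.8 CPM (2.33, SE 0.272, adjusted p = 0.000197). These rises, too, were without overlap, by the same rule. SERINC2 read 8.24, 13.2 and 9.39 CPM in MX and 97.6, 42.0 and 35.1 CPM with YAP1, with 1 YAP1 library far above the others (2.52, SE 0.507, adjusted p = 0.0352). Its call was lost in 10 of 20 alternative settings. Among these were the fits without YAP1 replicate 2 (adjusted p = 0.0643) and without MX replicate 1, 2 or 3 (adjusted p = 0.0954, 0.0874 and 0.126). The 6 libraries alone (adjusted p = 0.0651), total-count scaling (adjusted p = 0.0573) and the replicate block (adjusted p = 0.103) lost it too.

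Proliferation genes gave shares at or under the background. Of 40 G1/S and replication genes 1 rose, the replication factor GINS1 (log2 fold change 0.45, adjusted p = 0.0375). Of 35 G2/M genes 2 rose, the cytokinesis factor ECT2 (0.40, adjusted p = 0.0276) and the spindle checkpoint gene MAD2L1 (0.45, adjusted p = 0.032). With total-count scaling, and without any 1 of the 3 YAP1 libraries, both lists gave 0 calls, and the G2/M list also without MX replicate 2 or 3. The G1/S list gave 2 higher without MX replicate 1 or 3. MKI67, the proliferation marker Ki-67, stood at -0.21 (adjusted p = 0.43). Apoptosis regulators gave 1 higher and 1 lower of 28, and immediate early and AP-1 genes 2 higher of 29. With total-count scaling the AP-1 list gave 0 higher and 2 lower. Its higher count was 0 without YAP1 replicate 1 or 2, 1 without MX replicate 1, MX replicate 3, YAP1 replicate 3 or YAP1-S127A replicate 1, and 5 without YAP1-S127A replicate 2. For apoptosis regulators the higher count was 3 without MX replicate 1 and 0 without MX replicate 3 or with total-count scaling. The lower apoptosis call was lost without MX replicate 1, YAP1 replicate 1 or YAP1 replicate 2. All 13 mitochondrially encoded proteins had fold changes above 0, from 0.36 to 1.06 on the log2 scale, and none passed or had an unadjusted p under 0.05. DESeq2 and limma-voom called 0 of them too. The mitochondrial share of counts was lowest in MX replicate 3, at 1.896%.

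Long noncoding RNAs whose log2 CPM averaged 3 or more included CASC19 among the rises, with 17.4, 15.1 and 16.9 CPM in MX and 47.2, 33.6 and 35.6 CPM with YAP1 (log2 fold change 1.23, SE 0.156, adjusted p = 3.72e-05). LINC02532 was the largest fall, from 43.5, 35.6 and 27.9 CPM to 10.5, 11.3 and 10.8 CPM (-1.72, SE 0.22, adjusted p = 0.000104). HOXA-AS2, antisense within the HOXA cluster, read 16.8, 18.1 and 16.5 CPM in MX and 9.85, 9.07 and 9.67 CPM with YAP1 (-0.84, adjusted p = 0.000738). These 3 transcripts had separate groups, as the rule that named them required. HOXA4 and HOXA5, which lie near HOXA-AS2, fell with it (-0.97, adjusted p = 0.00166 and -0.78, adjusted p = 0.00404), and HOXA13, at the other end of the cluster, rose from 0.107, 0.544 and 0.1503 CPM to 1.97, 2.10 and 0.799 CPM (adjusted p = 0.00292), with MX near the detection floor. Whether the counting used strand is not given, so reads of antisense and sense genes may be shared. Of 34 HOX genes, a family taken after the values were seen, 1 rose and 4 fell, with 2 lower without MX replicate 2, YAP1 replicate 2 or YAP1 replicate 3.

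Some genes were detected in 1 group alone, with at most 3 counts in each library of one group and at least 10 in each of the other. There were 17, 7 with YAP1 and 10 with MX. BRINP2, a neural gene on chromosome 1 from 177171497 to 177282422, had 2, 1 and 1 counts in MX and 88, 145 and 131 counts with YAP1. SNHG14, a long noncoding host of small nucleolar RNAs, had 3, 2 and 1 counts against 40, 29 and 18. PCSK5, a proprotein convertase, had 3, 2 and 0 counts against 22, 27 and 17. In the other direction SUCNR1, the succinate receptor of the kidney, had 42, 24 and 31 counts in MX and 1, 2 and 0 with YAP1. CDC20B had 123, 20 and 26 counts in MX and 2, 0 and 0 with YAP1, so that the MX libraries themselves differed. GJB1, the gap junction protein connexin 32, had 28, 14 and 25 counts against 3, 0 and 0. With limits of 10 and 20 counts in place of 3 and 10, 30 genes met the rule, and without 1 library in turn 24 to 33 did, the most without MX replicate 2. MX replicate 3, YAP1 replicate 1 and YAP1 replicate 2 each gave 27 when left out. Leaving a library out can only keep or raise this count, because the rule must then hold in fewer libraries.

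The changed genes were spread unevenly over the chromosomes. On chromosome 6, 76 of 796 tested genes were higher and 18 lower, and the median log2 fold change of all its genes was 0.19. On chromosome 12, 10 of 848 were higher and 61 lower, with a median of -0.14. On chromosome 21, 13 of 154 were higher and 1 lower, with a median of 0.12. COL12A1, NT5E and DSP, which rose, and LAMA4, which fell, lie on chromosome 6, and the falling genes ACVR1B and NR1H4 on chromosome 12. When the median shift of each chromosome in each library was removed, an alternative chosen after seeing the data, 988 genes were called, 916 of them among the 1055. The part of these shifts in the calls was not tested further.

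**Figure D4:**
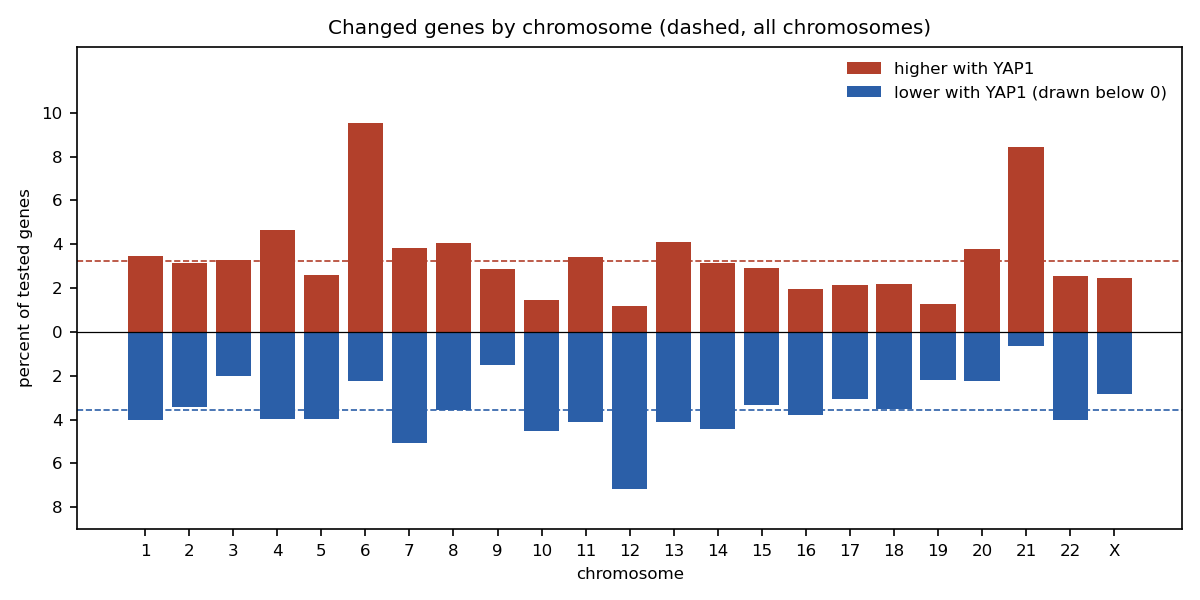
Bars give the percent of tested genes on each chromosome that were called higher (red, upward) and lower (blue, downward) with YAP1, and dashed lines the shares over all chromosomes, 3.23% and 3.58%. Chromosomes 6 and 21 stand out upward, with 76 of 796 and 13 of 154 genes, and chromosome 12 downward, with 61 of 848.

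The YAP1-S127A libraries allow the levels to be set beside a second construct, with the YAP1 libraries shared between the comparisons. Of the genes tested 305 differed between YAP1-S127A and YAP1, 1.97%. Among the 500 genes that rose with YAP1, 71 were higher still with YAP1-S127A and 6 were lower. Among the 555 that fell, 58 were lower still and 3 were higher. YAP1 transcripts themselves were less abundant with YAP1-S127A, at 741, 692 and 632 CPM (difference -0.83 on the log2 scale, adjusted p = 0.00383). CLDN2 was at 144, 108 and 128 CPM (difference from YAP1 -1.57, adjusted p = 7.05e-06) and FGFBP1 at 37.1, 46.6 and 60.6 CPM (difference 1.69, adjusted p = 3.32e-05). MMP1, at 1.14, 1.27 and 1.73 CPM, was not found to differ between the constructs (difference 0.12, SE 0.273, adjusted p = 0.918). CDH3 was lower with YAP1-S127A than with YAP1, at 4.88, 8.75 and 4.83 CPM (difference -1.03, adjusted p = 0.0167). The mitochondrial share was 29.6%, 7.40% and 21.2% in the YAP1-S127A libraries. With that share as a covariate, an alternative chosen after seeing the data, 257 genes differed between the constructs, 184 of them among the 305. Without mitochondrial genes 317 differed, 302 of them among the 305. The count of 305 was 126 without YAP1-S127A replicate 3 and 188 without replicate 2 of that group. It was 189, 166 and 144 without YAP1 replicate 1, 2 or 3, and 465 without MX replicate 1.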

How the data were processed

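Libraries were made with the Illumina Stranded mRNA Prep, per the labels' protocols. The submitters' processing notes name HISAT2, Cufflinks, Salmon 1.9.0 and GRCm39, a mouse build, without saying what each was used for. For the program that counted, its strand setting and the human build, nothing is given in the sources used here. The authors deposited 1 table of raw read counts per gene, whole numbers that were not normalised. From these counts, genes with low values were removed with edgeR 4.0.16 (filterByExpr, R 4.3.3), which left 15492 genes. Libraries were scaled by TMM, and a quasi-likelihood test with the group as the only term was fitted to all 9 libraries. P-values were adjusted by the Benjamini-Hochberg method over all genes tested, and a gene was called under an adjusted p of 0.05. The SE was taken as the size of the log2 fold change over the root of the test's F. Totals of 16228869 to 24811150 counts in the 6 libraries make 3 counts, the detection floor, worth 0.121 to 0.185 CPM. Such floors cover counting error only.

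Genes were named by a rule. It covered YAP1, the 20 largest changes in each direction (called, protein coding, log2 CPM averaging 3 or more, no overlap), the 10 smallest p-values each way, up to 6 called members per list, ANKRD1, AMOTL2, CYR61 and CTGF, and 3 noncoding RNAs each way. The text names some of these, and a few are not reported here. Members and lists were chosen with earlier results of these data known, and gene families, uncalled members, further called members and low-level genes were named after their values were seen. Alternatives were other scalings and filters, DESeq2 1.42.0, limma-voom (limma 3.58.1), the 6 libraries alone, a replicate block, each library left out, no mitochondrial genes and, chosen after seeing the data, 2 more. The test was tried on simulated counts drawn from its own fitted spread, a trial that cannot cover variation outside that model.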

Additional observations from a re-analysis of the deposited data

How the results depend on the processing

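Of 252 named genes called, 170 kept their call in all 20 settings and 82 lost it in at least 1. The count of 1055 ranged from 601 to 1423 without 1 library. Other scalings, filters and tools gave 915 (stricter filter) to 1282 (no filter), with 1176 by DESeq2 and 1006 by limma-voom. A covariate for the mitochondrial share (1037) and removal of chromosome-wide shifts (988) were chosen after seeing the data. With the replicate block 1428 genes were called between YAP1 and MX, and 472 between the constructs. Same-numbered libraries of MX and YAP1 correlated at 0.037, 0.084 and 0.001 in their deviations from group means. Pairs with different numbers correlated at -0.113 to 0.066. Whether same-numbered libraries share a batch was not tested further. For YAP1-S127A against YAP1 (305), scaling to total counts gave 616, no filter 520, the 6 libraries alone 478, and left-out libraries 126 to 465. Total-count scaling moved the median of all genes to -0.076 between YAP1 and MX and to -0.198 between the constructs. Genes detected in 1 group (17) were 30 with limits of 10 and 20 counts and 24 to 33 without 1 library, where the rule can only keep or raise the count. The value of CTGF ranged from -0.186 to 0.063 without 1 library, the last without YAP1 replicate 1. Apart from that effect of the rule, the cause of these changes was not tested. The difference in mitochondrial share (3.04 percentage points) kept its sign without each library in turn. Depth limits genes with a library at or under 3 counts.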

Other observations

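Several imprinted genes, chosen after their values were seen, differed between YAP1 and MX. NDN, the growth suppressor necdin on chromosome 15, read 0.107, 0.242 and 0.263 CPM in MX and 4.20, 3.80 and 3.24 CPM with YAP1 (adjusted p = 5.94e-07), and no fold is given because MX was near the detection floor. SNHG14, detected with YAP1 as described, lies on the same chromosome. UBE3A, an imprinted neighbour, stood at 0.10 on the log2 scale (adjusted p = 0.747) and did not pass. MEST, a paternally expressed hydrolase on chromosome 7, read 53.1, 72.8 and 57.0 CPM in MX and 21.7, 26.1 and 20.7 CPM with YAP1 (log2 fold change -1.42, SE 0.16, adjusted p = 1.04e-05). PEG10, a retrotransposon-derived gene, read 362, 229 and 259 CPM against 171, 188 and 165 CPM (-0.70, SE 0.142, adjusted p = 0.0039). RTL1, another such gene, read 1.18, 1.63 and 3.19 CPM against 0.0518, 0.113 and 0.178 CPM, near the detection floor with YAP1. These genes had no overlap between the groups apart from UBE3A. SGCE, which neighbours PEG10, and CDKN1C stood at 0.16 and 0.07 and did not pass.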
